A study of Mus musculus with 21 samples.

Results

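Infiltrating myeloid cells of Fgg γ390–396A mice were compared with those of WT mice at 1 d after controlled cortical impact (CCI), a mechanical injury of the exposed cortex. The comparison holds 6 libraries, 3 of each genotype, of 21 in the series, and the members were taken by the genotype, cell type and day that the labels give. The other libraries are microglia from sham-operated WT mice and from both genotypes at 1 d and 7 d post-CCI. In the Fgg γ390–396A knock-in, amino acids of the γ chain through which the integrin CD11b/CD18 attaches are changed, and fibrin can still form. The WT mice carry unaltered Fgg, and both groups were on the C57BL/6 background, received the injury, and were males of 17 to 24 weeks. The study's methods state that each library came from 25000 live CD45hiCD11b+ cells sorted from a block of tissue around the lesion, with the brains of 2 mice pooled at random. A library is therefore a pool of animals, and the spread among 3 libraries is the spread among 3 pools.

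Fibrinogen is the plasma protein that thrombin turns into the fibrin of blood clots. It enters brain tissue when vessels leak, and there it can bind the integrin CD11b/CD18, also called Mac-1, on neutrophils, monocytes, macrophages and microglia. Fgg encodes its γ chain, lies on chromosome 3 and is transcribed mainly in the liver. In these sorted cells the question is how the RNA of cells that have come in from blood differs when that binding site is missing from the fibrinogen around them.

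The sorted cells carried the receptor in both genotypes. Itgam, which encodes CD11b, stood at 361, 354 and 388 CPM (counts scaled to library size) in Fgg γ390–396A mice and at 375, 358 and 455 CPM in WT mice, a log2 fold change of −0.11 (SE 0.16, adjusted p = 0.901 in edgeR's quasi-likelihood test). Itgb2, which encodes CD18, stood at 174, 210 and 196 CPM against 206, 197 and 197 CPM, a log2 fold change of −0.05 (SE 0.14, adjusted p = 1). The libraries of the genotypes overlapped for both genes, and the size of neither effect exceeded its SE. Fgg itself held 0, 0 and 1 counts in the mutant libraries and 0 in each WT library, so the mutation could not be checked from its own transcript.

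The labels name the cells macrophages, and the macrophage markers stood at 14251 to 17814 CPM in sum over 20 genes per library. The gate also takes other leukocytes. The 28 neutrophil markers summed to 3437, 7096 and 6426 CPM in Fgg γ390–396A mice and to 10039, 4380 and 15036 CPM in WT mice. S100a8, a calcium-binding protein that neutrophils hold in large amounts and whose gene lies on chromosome 3, 7.66 Mb from Fgg, ranged from 1329 to 2987 CPM in the mutant and from 1925 to 7308 CPM in the WT libraries. The 20 monocyte markers summed to between 2402 and 2858 CPM. The 20 microglia markers summed to 2820, 4520 and 3688 CPM in the mutant and to 3086, 3318 and 2402 CPM in WT mice. The 15 dendritic cell markers summed to 305, 332 and 438 CPM in the mutant and to 293, 301 and 212 CPM in the WT libraries, without overlap. Of these markers, 9 had a log2 fold change above 0 and 6 below, and 1 reached an unadjusted p under 0.05. The list shares Bst2 with the interferon-stimulated genes described below and Siglech with the microglia markers. The platelet markers summed to 962 to 1970 CPM, and this list shares Pf4 with the markers of border-associated macrophages. Sums of the T and NK cell, B cell, endothelial, neuron and glia markers stayed under 100 CPM in every library. Fewer cells of a type and less RNA per cell cannot be told apart in pooled cells such as these.

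Total counts ranged from 25839106 to 51697493 per library, ribosomal RNA genes took 43.0% to 53.1% of them, and 3 counts, the smallest amount treated as measurable here, corresponded to 0.0726 to 0.158 CPM. This floor covers counting error only, and only roughly, because the deposited counts are scaled for gene length. Genes of the mitochondrial genome took 21.7%, 26.4% and 23.8% of all counts in the mutant and 18.5%, 18.7% and 20.8% in the WT libraries. These groups did not overlap, and the exact permutation test gave p = 0.1, the smallest that 3 libraries against 3 allow. The part of this difference in the results that follow was not tested.

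Among the genes with the smallest p were several whose transcripts are almost the same as those of a gene on chromosome 3. Rps3a1 on chromosome 3 encodes a protein of the small ribosomal subunit. Rps3a2 on chromosome 14 and Rps3a3 on chromosome 13 are intron-less copies of it. A stretch of their coding sequence, bases 580 to 669 counted from the A of the Rps3a1 start codon, is printed from the GRCm38 reference with the bases that differ among the 3 genes in capitals.

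Rps3a1: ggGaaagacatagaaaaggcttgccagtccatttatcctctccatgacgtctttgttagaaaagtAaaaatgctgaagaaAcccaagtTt

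Rps3a2: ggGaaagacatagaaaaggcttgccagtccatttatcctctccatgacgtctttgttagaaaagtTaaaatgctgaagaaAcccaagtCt

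Rps3a3: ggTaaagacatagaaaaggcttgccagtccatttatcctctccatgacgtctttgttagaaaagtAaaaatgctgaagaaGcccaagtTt

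Only 4 bases of this 90-base stretch separate the genes. Over the whole coding sequence, Rps3a2 differs from Rps3a1 at 4 of 792 aligned bases (T216C, T534C, A645T and T668C, the base of Rps3a1 first) and Rps3a3 at 9 of 795 bases. A read that spans none of these bases does not tell the genes apart. The sequences are those of the reference strain and were not read from the animals.

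Rps3a1 (chromosome 3, 86137940 to 86142702, minus strand) stood at 204, 194 and 191 CPM in the mutant and at 888, 786 and 646 CPM in WT mice. Every mutant library was below every WT library, and the log2 fold change was −1.98 (SE 0.20, adjusted p = 2.0e-05, edgeR). Rps3a2 (chromosome 14, 88123017 to 88123808, minus strand) ran the other way, at 258, 296 and 375 CPM against 25.8, 24.4 and 23.2 CPM, a log2 fold change of 3.66 (SE 0.30, adjusted p = 1.63e-06). Rps3a3 (chromosome 13, 108670603 to 108671397, plus strand) stood at 379, 369 and 399 CPM against 3.53, 4.42 and 3.20 CPM, a log2 fold change of 6.69 (SE 0.45, adjusted p = 9.93e-08). Added up over the 4 near-identical genes measured in the family, the level was 863, 865 and 968 CPM in the mutant and 925, 825 and 685 CPM in WT mice. The family sum overlapped between genotypes, with a log2 fold change of 0.15 (SE 0.17, adjusted p = 0.789), which is smaller than its SE.

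**Figure D1:**
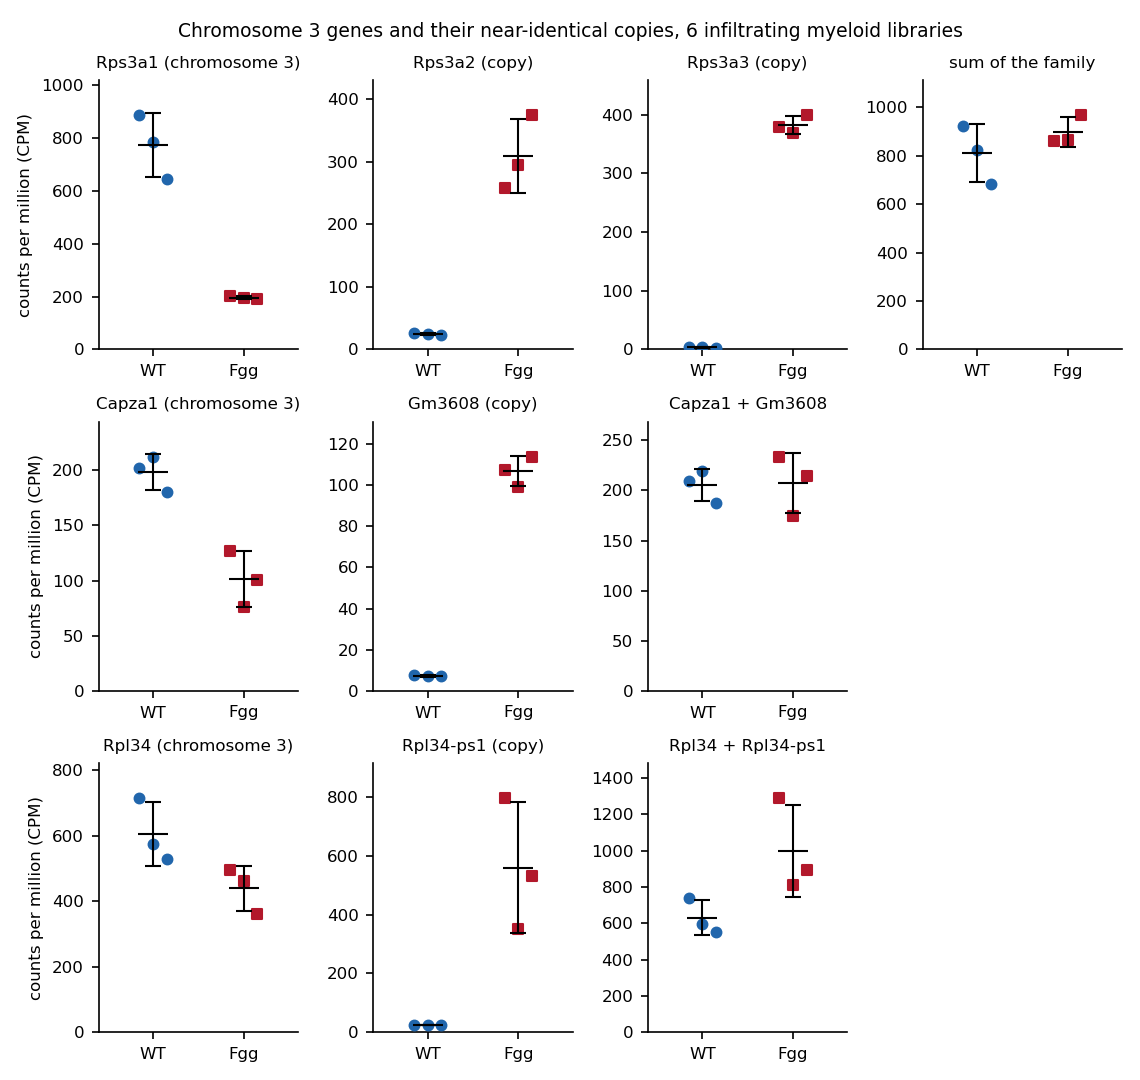
Level in CPM (vertical axes, from 0) of chromosome 3 genes, their near-identical copies and the sum of each, in the 3 WT and 3 Fgg γ390–396A infiltrating myeloid libraries; each point is a library and each bar the group mean. Rps3a3 lies at 369 to 399 CPM in the mutant and at 3.20 to 4.42 CPM in the WT libraries, while the sum over the Rps3a family overlaps.

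Capza1 on chromosome 3 encodes a subunit of the capping protein of actin filaments, and Gm3608 on chromosome 1 differs from it at 3 of 860 aligned coding bases. A window around the first of these, coding bases 513 to 572, shows how little sequence divides them.

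Capza1: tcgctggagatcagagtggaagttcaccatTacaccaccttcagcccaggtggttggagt

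Gm3608: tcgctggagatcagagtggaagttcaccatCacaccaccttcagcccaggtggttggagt

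Gm3608 stood at 107, 99.1 and 114 CPM in the mutant and at 7.69, 7.00 and 7.21 CPM in WT mice (log2 fold change 3.87, SE 0.27, adjusted p = 9.93e-08 in edgeR). Capza1 stood at 126, 75.8 and 101 CPM against 202, 212 and 181 CPM, a log2 fold change of −0.97 (SE 0.19, adjusted p = 0.0341), within the bar of 1 that a call needs. Together they reached 234, 175 and 215 CPM against 209, 219 and 188 CPM. The copy held 51.4% of this sum in the mutant and 3.55% in the WT libraries, and the sums overlapped.

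Rpl34, which encodes a protein of the large ribosomal subunit, and its processed pseudogene Rpl34-ps1 on chromosome 6 differ at 2 of 354 coding bases (T132C and C318G), the first of them in coding bases 102 to 161.

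Rpl34: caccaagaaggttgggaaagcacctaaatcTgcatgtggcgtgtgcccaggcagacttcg

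Rpl34-ps1: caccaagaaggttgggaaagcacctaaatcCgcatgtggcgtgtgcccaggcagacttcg

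Rpl34-ps1 stood at 795, 353 and 531 CPM in the mutant and at 24.1, 24.5 and 25.6 CPM in WT mice (log2 fold change 4.50, SE 0.40, adjusted p = 3.81e-06 in edgeR). Rpl34 stood at 494, 460 and 362 CPM against 714, 573 and 528 CPM, a log2 fold change of −0.46 that did not pass the test (adjusted p = 0.401). Here the genotypes differed in the sum of the pair as well, which was 1289, 813 and 893 CPM in the mutant and 738, 598 and 554 CPM in the WT libraries, a log2 ratio of the means of 0.66 with no overlap.

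Hist1h2al on chromosome 13, which the annotation lists as a processed pseudogene, stood at 24.7, 52.1 and 63.5 CPM in the mutant and at 0.387, 0 and 0 CPM in WT mice (adjusted p = 0.000989, edgeR). Hist2h2aa2 on chromosome 3, a histone H2A gene that differs from it at 2 of 339 coding bases, stood at 73.5, 71.3 and 65.5 CPM against 122, 78.3 and 156 CPM. Their sum overlapped, at 98.3 to 129 CPM against 78.3 to 156 CPM. Gm5900 on chromosome 7, a copy of Lamtor3 with 2 differing bases of 375, stood at 5.60, 5.90 and 6.07 CPM against 0.290, 0.211 and 0.856 CPM (log2 fold change 3.69, SE 0.58, adjusted p = 0.00538). Lamtor3, a subunit of the Ragulator complex that holds mTORC1 signaling at lysosomes, stood at 12.2, 25.8 and 17.5 CPM against 29.3, 26.2 and 30.0 CPM, and the sum of the pair was 24.4 ± 6.99 against 29.0 ± 2.32 CPM (SD, n = 3).

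These 5 families are described because a copy was called higher in the mutant libraries. The chromosome 3 counterpart had a negative log2 fold change in each, from −1.98 for Rps3a1 to −0.46 for Rpl34. Those of Rpl34, Lamtor3 and Hist2h2aa2 did not pass the test (adjusted p = 0.401, 0.304 and 0.400, edgeR). In microglia at 1 d, from other libraries, the log2 fold changes of the copies were 6.14 for Rps3a3, 3.49 for Rps3a2, 3.47 for Gm3608, 3.63 for Rpl34-ps1, 6.70 for Hist1h2al and 3.93 for Gm5900. The difference between cell types did not pass the test for any of these 6 copies, with adjusted p from 0.671 to 1. Rpl34-ps1 and Gm5900 match their chromosome 3 genes only when every transcript is compared, a step added after the data were seen, and in the counts by class below they stand among the other copies. The mutation, sequence inherited with Fgg from the strain in which the knock-in was made, and the way reads were divided among copies cannot be told apart in this design.

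Other copies were called as well. Gm4070 and Gvin1, both on chromosome 7, are interferon-induced very large GTPases that differ at 3 of 7284 aligned coding bases. Gm4070 stood at 89.2, 76.9 and 108 CPM in the mutant and at 38.3, 47.3 and 45.9 CPM in WT mice (log2 fold change 1.06, SE 0.21, adjusted p = 0.0461, edgeR), and the family of 4 summed to 133 ± 28.6 against 72.1 ± 1.89 CPM (SD, n = 3), a log2 fold change of 0.88 that was not called (adjusted p = 0.0649). Gm16125 had no counts in the mutant libraries and 1.64, 1.68 and 1.58 CPM in the WT libraries, so it was at least 16.7-fold lower. Gm8451, a copy of the ribosomal protein gene Rpl27a, stood at 5.60, 4.57 and 4.73 CPM against 12.4, 11.5 and 8.16 CPM (log2 fold change −1.11, adjusted p = 0.0680), and the sum over the 11 genes of its family had a log2 fold change of 0.07 (adjusted p = 1). Its family also holds a gene of chromosome 3. Over all families of near-identical genes, 2 of 829 sums were called (0.241%), that of Rpl34-ps1 with 4 other copies, which leaves out Rpl34 itself, and that of Uhrf1, an epigenetic regulator of dividing cells, at 11, 3.20 and 1.79 CPM against 0.633, 1.38 and 1.33 CPM.

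Across all 23815 genes with at least 5 counts over the 21 libraries, 108 genes were called, which is 0.453%, with an adjusted p under 0.1 and a log2 fold change beyond 1 in either direction. Of these, 60 were higher in Fgg γ390–396A mice (0.252%) and 48 lower (0.202%). Without a correction, 11.5% of the genes had p under 0.05, 5.03% higher and 6.51% lower, and the 3 libraries of one genotype lay outside the range of the other for 8.02%, 3.16% higher and 4.85% lower. The same rule called 0.0546% of the genes in microglia at 1 d. The spread was estimated from all 21 libraries. With the 6 infiltrating myeloid libraries alone, 7 genes were called: Rps3a1, Rps3a2, Rps3a3, Gm3608, Rpl34-ps1, Hist1h2al and Gbp2b. The count also moved with single libraries, to 641 without Fgg replicate 3, 293 without Fgg replicate 1 and 65 without WT replicate 3.

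For the counts of calls, chromosome 3 and near-identical copies were kept apart from the other genes. On chromosome 3, 14 of 1462 genes were called (0.958%), which made 13% of the calls where the chromosome held 6.14% of the genes tested. Among copies of chromosome 3 genes elsewhere, 5 of 542 were called (0.923%), and among other copies and pseudogenes 7 of 3883 (0.18%). The remaining 17928 genes gave 82 calls (0.457%), 44 higher and 38 lower. Of these 82, 39 had a mean of at least 1 CPM in both genotypes, and 15 had 1 genotype with no counts at all.

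**Figure D2:**
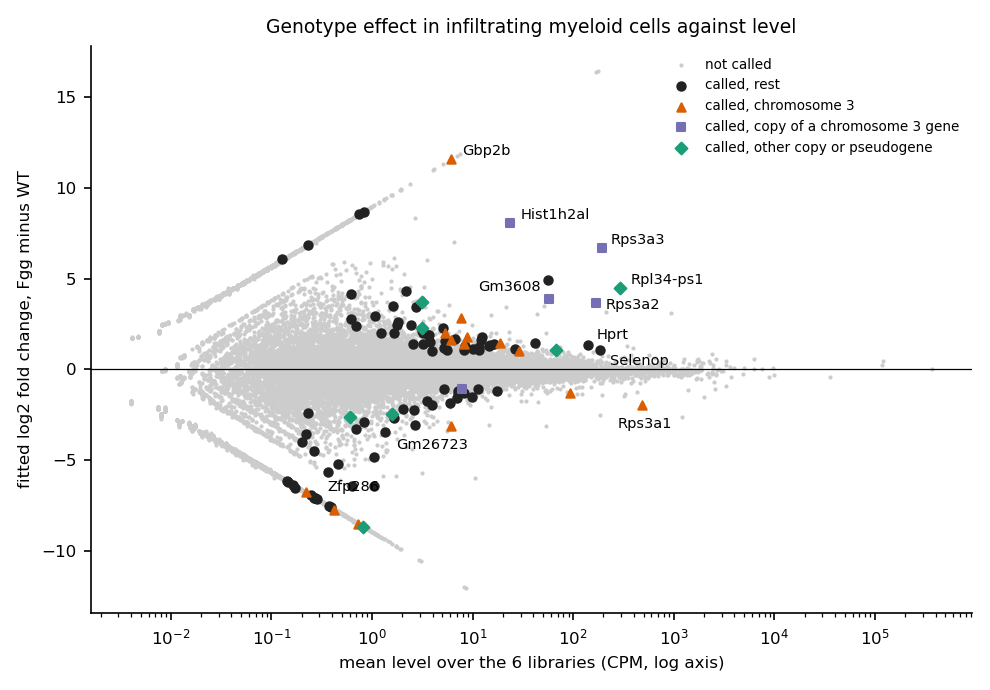
Fitted log2 fold change, Fgg γ390–396A minus WT, against the mean level of each gene in CPM (log axis) over the 6 infiltrating myeloid libraries; each point is a gene with counts in these libraries, and called genes are marked by class. The copies Rps3a3, Rps3a2, Gm3608 and Rpl34-ps1 have log2 fold changes from 3.66 to 6.69 at high levels, while many of the 48 lower calls lie at the low end.

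On chromosome 3, the mutant libraries were higher for 8 of the called genes and lower for 6. Gbp2b encodes a guanylate-binding protein, a GTPase that interferon-γ induces and that acts against intracellular microbes. It stood at 7.23, 8.51 and 21.2 CPM in the mutant libraries and had no counts in any WT library, so it was at least 101-fold higher against the floor of 3 counts per library (adjusted p = 0.00318, edgeR). It lies 59.6 Mb from Fgg. Ap1ar, an adaptor that links AP-1 coated vesicles to kinesin, stood at 33.8, 19.5 and 29.4 CPM against 11.1, 12.1 and 7.57 CPM (log2 fold change 1.42, SE 0.22, adjusted p = 0.00431). Bcl9, a co-activator of β-catenin in Wnt signaling, stood at 15.5, 13.2 and 6.91 CPM against 4.35, 4.74 and 4.51 CPM (log2 fold change 1.39, SE 0.23, adjusted p = 0.00772). The groups did not overlap for any of these genes.

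Arhgef2, a microtubule-associated exchange factor, stood at 29.9, 47.8 and 37.0 CPM in the mutant and at 19, 17.8 and 20.1 CPM in the WT libraries (log2 fold change 1.01, SE 0.18, adjusted p = 0.0199, edgeR). Bank1, a scaffold of B cell receptor signaling, stood at 4.34, 15.1 and 5.99 CPM against 2.52, 1.90 and 1.94 CPM (log2 fold change 1.99, SE 0.39, adjusted p = 0.0420). Without Fgg replicate 2 the log2 fold change of Bank1 was 1.28, and the call was lost there and without WT replicate 2 or 3. That of Arhgef2 was lost without Fgg replicate 2. The remaining higher genes of the chromosome were B3galnt1, a glycosyltransferase, with a log2 fold change of 1.6 (adjusted p = 0.0475), Alpk1, a kinase that senses bacterial sugars, with 1.78 (adjusted p = 0.0956), and the non-coding A930005H10Rik with 2.81 (adjusted p = 0.0718).

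Among the lower genes, Fcrls, an Fc receptor-like gene used as a marker of resident microglia, stood at 33.5, 75.8 and 50.5 CPM in the mutant and at 131, 188 and 81.9 CPM in WT mice (log2 fold change −1.33, SE 0.28, adjusted p = 0.0614, edgeR). The groups did not overlap, and the call was lost without WT replicate 1 or 2. Of the 20 microglia markers, Fcrls included, 16 had a log2 fold change above 0 and 4 below. At an unadjusted p under 0.05, 5 were higher (25%) and 2 lower (10%), against 5.03% and 6.51% of all genes. Siglech stood at 14.6, 25.7 and 22 CPM against 10.6, 7.37 and 5.18 CPM (log2 fold change 1.42, adjusted p = 0.146), and the summed markers overlapped between genotypes. In microglia at 1 d the log2 fold change of Fcrls was −2.18, and the effect did not differ between the cell types at the threshold (adjusted p = 0.583). The other lower genes of the chromosome besides Rps3a1 are gene models without a named product. Gm42658, which lies inside Capza1, stood at 1.17, 0.814 and 1.71 CPM against 10.7, 4.90 and 17 CPM. Gm43106, Gm43351 and Gm43005 had no counts in the mutant libraries and were at least 8.53-fold, 14.7-fold and 4.52-fold lower. Gm43351 also had none in WT replicate 2, with 3.05 and 1.26 CPM in WT replicates 1 and 3, so its groups overlapped.

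The 14 calls were not gathered beside Fgg. Within 10 Mb of the gene 3 of 231 genes were called, from 10 to 20 Mb 2 of 301, from 20 to 40 Mb 3 of 406, from 40 to 60 Mb 6 of 331, and from 60 to 90 Mb 0 of 193. The shares called were 1.30%, 0.664%, 0.739%, 1.81% and 0% in that order, against 0.453% of all genes. In the interval from 60 to 90 Mb, 19 genes (9.84%) had an unadjusted p under 0.05, against 11.5% of all genes.

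**Figure D3:**
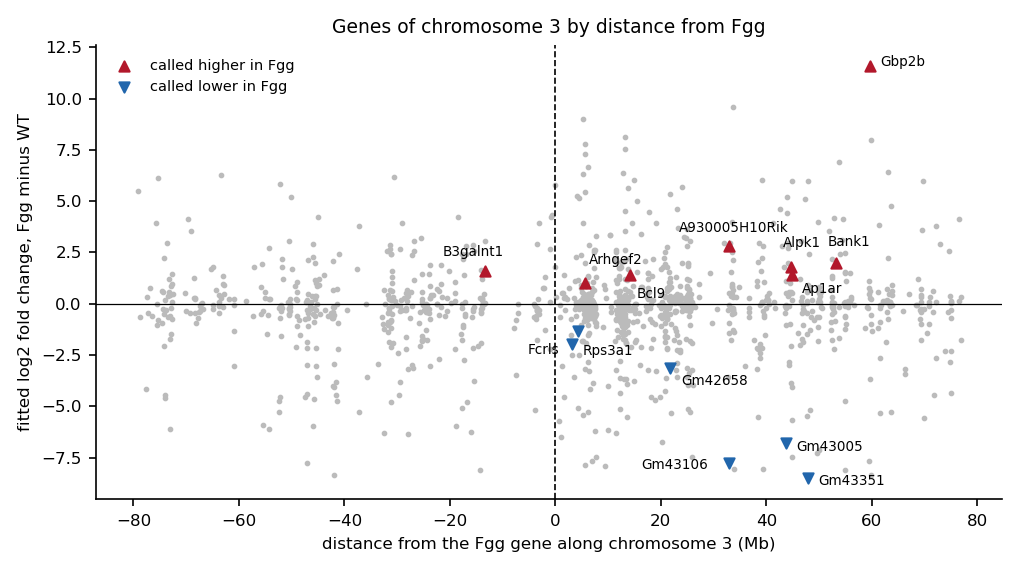
Fitted log2 fold change, Fgg γ390–396A minus WT, of the genes tested on chromosome 3 that had counts in these libraries, against their distance from Fgg in Mb, with the 14 called genes marked. The called genes lie between 13.4 Mb on one side of Fgg and 59.6 Mb on the other, and all but B3galnt1 lie on the latter side.

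Away from chromosome 3 and from copies, 44 genes were higher. Rilpl1, a regulator of protein transport in primary cilia and a partner of Rab proteins on lysosomes, stood at 7.27, 5.77 and 11.9 CPM in the mutant and at 1.45, 1.84 and 1.94 CPM in WT mice (log2 fold change 2.26, SE 0.25, adjusted p = 8.33e-05, edgeR). Hprt, the purine salvage enzyme often used as a reference gene, stood at 174, 223 and 211 CPM against 79.5, 96.1 and 65.3 CPM (log2 fold change 1.34, SE 0.18, adjusted p = 0.000989). With the 6 infiltrating myeloid libraries alone its adjusted p was 0.116. Selenop, which encodes the selenoprotein that carries selenium, stood at 233, 285 and 226 CPM against 150, 126 and 80.2 CPM (log2 fold change 1.06, SE 0.22, adjusted p = 0.0488). For all 3 genes every mutant library was above every WT library. Mean levels in microglia at 1 d, mutant then WT, were 13.2 and 8.79 CPM for Rilpl1 and 177 and 124 CPM for Hprt. For Selenop they were 529 and 302 CPM. These means lay above every WT infiltrating myeloid library, and the part of microglia in the gate was not tested.

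Further called genes encode enzymes and a receptor. Agpat3, an acyltransferase of phospholipid synthesis, stood at 24.0, 23.0 and 13.9 CPM against 7.23, 9.11 and 9.15 CPM (log2 fold change 1.26, SE 0.21, adjusted p = 0.00772, edgeR). Rdh14, a retinol dehydrogenase, stood at 4.47, 4.59 and 4.81 CPM against 1.86, 1.90 and 1.49 CPM (log2 fold change 1.4, SE 0.22, adjusted p = 0.00538). Oxsm, an enzyme of mitochondrial fatty acid synthesis, stood at 7.82, 5.60 and 4.00 CPM against 1.69, 1.42 and 1.53 CPM (log2 fold change 1.90, SE 0.35, adjusted p = 0.0242). Paqr7, a membrane progestin receptor, stood at 13, 13.3 and 9.83 CPM against 5.15, 4.69 and 4.78 CPM (log2 fold change 1.30, SE 0.24, adjusted p = 0.0242). The genotypes did not overlap for any of these genes. Mean levels in microglia at 1 d, mutant then WT, were 35.0 and 38.5 CPM for Agpat3 and 6.68 and 5.32 CPM for Rdh14. They were 3.30 and 3.17 CPM for Oxsm and 18.2 and 22.1 CPM for Paqr7. Here too the microglia means exceeded every WT infiltrating myeloid library, and the part of microglia in the gate was not tested.

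Of the genes with roles in immune signaling, Blnk, the adaptor that joins the B cell receptor to its downstream kinases and is also used in macrophages, stood at 10.2, 24.6 and 13.2 CPM in the mutant and at 7.57, 7.11 and 6.18 CPM in the WT libraries (log2 fold change 1.2, SE 0.22, adjusted p = 0.0251, edgeR). The call was lost without Fgg replicate 2 or WT replicate 3. Irgm2, an interferon-induced GTPase of the immunity-related family, stood at 13, 9.28 and 11.3 CPM against 5.54, 4.42 and 5.77 CPM (log2 fold change 1.09, SE 0.22, adjusted p = 0.0461). Its call was lost without Fgg replicate 1 or WT replicate 2, and it overlaps Igtp, another gene of that family, on the same strand, so reads in the overlap cannot be assigned with certainty. Gpr165, an orphan receptor, stood at 0.994, 1.8 and 0.728 CPM against 0.0242, 0.105 and 0.0902 CPM (log2 fold change 4.14, SE 0.52, adjusted p = 0.000457), so it was near the floor in WT mice.

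Fgg replicate 2 stood above the other mutant libraries for a number of the higher genes. Fam92a, which encodes a membrane-bending protein of mitochondria and cilia, stood at 1.45, 8.66 and 2.27 CPM against 0.218, 0.158 and 0.225 CPM, and its log2 fold change of 4.33 was 3.17 without that library. Ctsf, a lysosomal cysteine protease, stood at 1.45, 7.77 and 2.97 CPM against 0.677, 1.16 and 0.451 CPM, and its log2 fold change of 2.46 was 1.58 without it. Nav3, 2610528A11Rik and Casc4 lost the call without Fgg replicate 2 and without 2 of the WT libraries in turn. In microglia at 1 d, mean levels in mutant and WT mice were 5.70 and 5.01 CPM for Fam92a and 17.4 and 13.2 CPM for Ctsf. They were 138 and 104 CPM for Nav3, 16.7 and 8.68 CPM for 2610528A11Rik, and 6.39 and 8.17 CPM for Casc4. The summed microglia markers given above were also highest in Fgg replicate 2, and their part in these values was not tested.

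**Figure D4:**
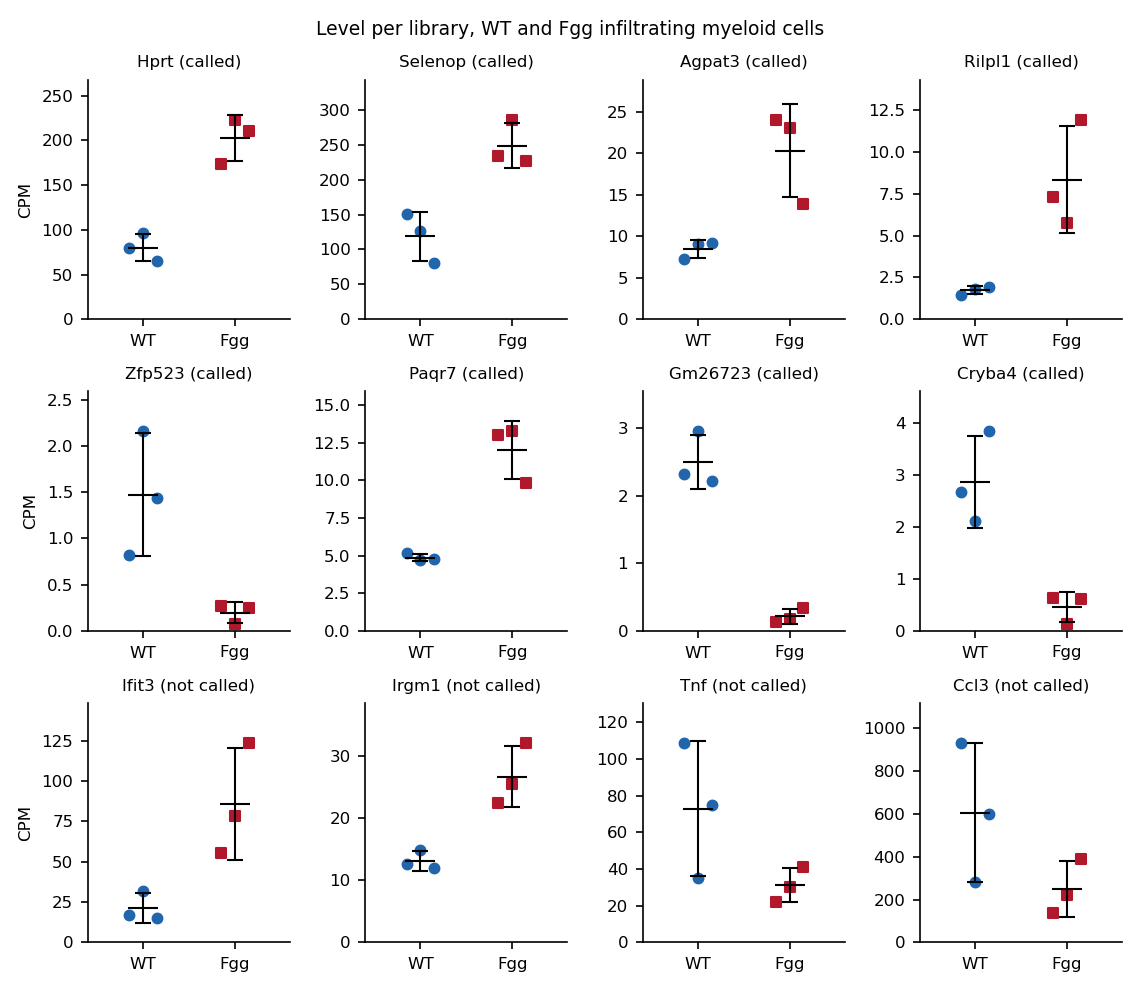
Level in CPM (vertical axes, from 0) of single genes in the 3 WT and 3 Fgg γ390–396A infiltrating myeloid libraries; each point is a library, each bar the group mean, and the panel titles say whether the gene was called. Hprt lies at 174 to 223 CPM in the mutant and at 65.3 to 96.1 CPM in the WT libraries, whereas Tnf, which was not called, overlaps.

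The lower genes were mostly scarce. Gm26723, a gene model without a named product, had the smallest p among them, at 0.136, 0.173 and 0.336 CPM in the mutant and 2.32, 2.95 and 2.21 CPM in the WT libraries (log2 fold change −3.48, SE 0.37, adjusted p = 5.79e-05, edgeR). Cryba4, a crystallin, stood at 0.632, 0.123 and 0.616 CPM against 2.66, 2.11 and 3.83 CPM (log2 fold change −2.70, SE 0.40, adjusted p = 0.00333). The zinc finger gene Zfp523 stood at 0.271, 0.074 and 0.252 CPM against 0.822, 2.16 and 1.44 CPM (log2 fold change −2.89, adjusted p = 0.0461), and lost its call without Fgg replicate 2 or WT replicate 2. The genotypes did not overlap for these 3 genes.

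Of the other lower genes named by the rule, 6 had no counts in any mutant library. Against the floor of 3 counts per library, Gm37963 was at least 7.94-fold lower, Rac3, a small GTPase, at least 5.79-fold, Gm15736 at least 5.47-fold, Zfp286 at least 5.05-fold, Gm16237 at least 3.38-fold and Bend5 at least 3.02-fold. A further 3 held 1 or 2 counts over the mutant libraries. The ratio of WT to mutant was 117 for Mymk, a membrane protein of muscle fusion (counting interval 20.5 to 4661), 82.3 for Gm12953 (22.3 to 686) and 71.5 for the kinase gene Dyrk4 (12.4 to 2872). These intervals cover counting error only, and only roughly, because they take counts scaled for gene length as reads. The gene models Gm20544 and Gm26909 had log2 fold changes of −4.86 (adjusted p = 0.0488) and −3.28 (adjusted p = 0.0531). Some of the lower gene models lie antisense to, or inside, other genes, and whether the counting used strand is not given in the sources used here.

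A call outside the naming rule shows how far 1 library can carry a test, and it was chosen after its values were seen. Relt, a receptor of the TNF receptor family, stood at 314, 4.86 and 4.06 CPM in the mutant and at 3.27, 2.05 and 5.45 CPM in the WT libraries. It was called with a log2 fold change of 4.90 (adjusted p = 0.0956, edgeR), but Fgg replicates 2 and 3 lie within the WT range.

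Of 22 gene lists described, the interferon-stimulated genes had the largest share of members on one side of 0. Interferons bind receptors whose signaling switches on genes that block viral and bacterial growth. Of 44 such genes, all measured, 43 had a log2 fold change above 0 and 1, Oas2, below. The median was 0.82, where that of all genes tested was 0. Chromosome 3 holds 6 of the members, Gbp2, Gbp2b, Gbp3, Gbp5, Gbp7 and Ifi44, and without them the median was also 0.82. An unadjusted p under 0.05 was reached by 13 members upward and 0 downward, 29.5% of the list against 5.03% of all genes, and 12 did not overlap between genotypes with the mutant higher, against 3.16% of all genes. Gbp2b was the only member called. Summed over the list, the level was 4171, 3957 and 5971 CPM in the mutant and 3805, 2898 and 3081 CPM in WT mice. The sums did not overlap, Fgg replicate 3 was the highest, and without it the median fell to 0.25. In microglia at 1 d, the median was 0.73.

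Single members had the following levels. Ifit3, an antiviral protein of the tetratricopeptide repeat family, stood at 55.4, 78.6 and 124 CPM in the mutant and at 17.1, 31.7 and 15.1 CPM in the WT libraries (log2 fold change 2.01, SE 0.56, adjusted p = 0.173, edgeR). Irgm1, a GTPase that regulates autophagy of microbes, stood at 22.4, 25.5 and 32.1 CPM against 12.5, 14.8 and 11.9 CPM (log2 fold change 1.03, SE 0.27, adjusted p = 0.137). Igtp, also called Irgm3, stood at 17.5, 21.8 and 46.6 CPM against 15.4, 15.5 and 14.2 CPM (log2 fold change 0.93, SE 0.29, adjusted p = 0.223). The groups did not overlap for these 3 genes, and none passed the threshold.

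Many promoters of the list carry a short motif to which IRF factors are known to bind. It was searched as GAAA, any 2 bases and GAAA, which reads TTTC, any 2 bases and TTTC on the other strand, in the 250 bases before and 50 after each RefSeq start site of GRCm38.p6. The motif was present in 23 of the 35 list genes with a promoter in the table (65.7%) and in 3.99% of all 27025 genes with a promoter there. A stretch of 60 bases is shown for the called member and for the 3 members just described, on the strand of the gene, with the motif in capitals.

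Gbp2b, chr3:142594685-142594744, plus strand: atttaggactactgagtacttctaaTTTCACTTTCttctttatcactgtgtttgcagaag

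Ifit3, chr19:34583348-34583407, plus strand: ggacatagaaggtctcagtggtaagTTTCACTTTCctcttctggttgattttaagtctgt

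Irgm1, chr11:48871421-48871480, minus strand: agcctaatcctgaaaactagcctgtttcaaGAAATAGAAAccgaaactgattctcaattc

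Igtp, chr11:58199496-58199555, plus strand: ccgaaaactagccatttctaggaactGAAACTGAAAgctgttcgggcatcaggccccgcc

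A match is a description of the letters and no measure of binding. All 4 windows lie upstream of the start site, with the motif beginning 137 bases before it in Gbp2b, 156 in Ifit3, 30 in Irgm1 and 34 in Igtp. In Irgm1 a second match overlaps the one shown.

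Cytokines and chemokines were measured as the signals through which these cells act on others. None of the 24 inflammatory cytokines measured was called, and their median log2 fold change was −0.67. Of all genes 0.453% were called, so the lack of a call in a list of this size says little about its members. At an unadjusted p under 0.05, 6 members were lower (25%) and 2 higher (8.33%), against 6.51% and 5.03% of all genes. The median was −1.01 without the members on chromosome 3 (Il12a, Tnfsf10 and Csf1), and ranged from −0.34 without WT replicate 1 to −1.05 without Fgg replicate 3. Tnf stood at 22.3, 30.4 and 41.1 CPM in the mutant and at 109, 35.1 and 74.9 CPM in WT mice (log2 fold change −1.22, SE 0.45, adjusted p = 0.306, edgeR). Il1a, an alarm cytokine of the interleukin-1 family, stood at 5.33, 14.2 and 40.7 CPM against 120, 29.5 and 58.1 CPM (log2 fold change −1.78, SE 0.55, adjusted p = 0.214). Il12a, on chromosome 3, encodes a subunit of interleukin-12 and had no counts in the mutant libraries and stood at 2.59, 0.105 and 0.541 CPM in WT mice. Levels of Tnf and Il1a overlapped between genotypes. The neutrophil markers given above were also highest in WT replicates 1 and 3, and their part in these values was not tested.

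None of the 26 chemokines measured was called, and their median was 0.07, with a range of −0.13 to 0.25 when libraries were left out in turn. Ccl3 and Ccl4, which draw monocytes and T cells, had negative log2 fold changes of −1.28 and −1.41. Ccl3 stood at 138, 221 and 390 CPM against 931, 283 and 601 CPM (adjusted p = 0.215, edgeR). Ccl5, a further attractant of leukocytes, had a log2 fold change of 1.23 instead, at 64.6, 105 and 141 CPM against 35.5, 58.8 and 38.5 CPM without overlap (adjusted p = 0.340). Of the 26 receptors for chemokines and other attractants, none was called, and the median was −0.16.

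Genes that restrain inflammation, with those of the interleukin-10 pathway, numbered 46 and held no call, with a median of −0.34, which was −0.13 without Fgg replicate 1. Of the 32 AP-1 and immediate early genes, which respond within minutes to stimulation and to tissue dissociation, none was called, and the median was −0.48. At an unadjusted p under 0.05, 5 members were lower (15.6%) and 0 higher, against 6.51% and 5.03% of all genes. Atf3, which belongs to both lists, stood at 41.7, 26.0 and 86.6 CPM in the mutant and at 162, 115 and 93.7 CPM in the WT libraries (log2 fold change −1.27, SE 0.38, adjusted p = 0.206, edgeR). Fosb stood at 4.02, 2.91 and 10.4 CPM against 28.8, 24.8 and 21.4 CPM (log2 fold change −2.11, SE 0.79, adjusted p = 0.321). The groups did not overlap for either gene.

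Of 32 genes of NF-kB and Toll-like receptor signaling, none was called and the median was 0.02. Tlr3, the receptor of double-stranded RNA, came closest, at 6.05, 8.29 and 16 CPM against 4.93, 4.74 and 3.61 CPM (log2 fold change 1.19, SE 0.29, adjusted p = 0.102, edgeR). Tlr7, which senses single-stranded RNA, had a log2 fold change of 0.64 (adjusted p = 0.245), while Tlr6 and Tlr2, which pair at the cell surface to sense bacterial lipopeptides, had −1.27 (adjusted p = 0.157) and −0.64 (adjusted p = 0.358). Tlr2 lies on chromosome 3, 0.828 Mb from Fgg. Of the 33 genes of inflammasomes and cell death, Nlrp3 had a log2 fold change of −1.02 (adjusted p = 0.206) and none was called.

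No oxidative gene was called, but with 0.453% of all genes called this says little about lists of such size. The 21 genes for production of reactive oxygen species had a median of 0.00, and Ptgs2, the inducible cyclooxygenase, had a log2 fold change of −1 (SE 0.39, adjusted p = 0.334, edgeR), at 59.5, 58.9 and 112 CPM against 240, 86.3 and 136 CPM. The 30 antioxidant genes had a median of −0.19, with 8 log2 fold changes above 0 and 22 below. At an unadjusted p under 0.05, 2 production genes were lower (9.52%) and 0 higher. Of the antioxidant genes, 1 was lower and 1 higher (3.33% each). The shares over all genes were 6.51% lower and 5.03% higher. The 15 genes of MHC class II presentation had a median of 0.06, no call and no member with an unadjusted p under 0.05 in either direction.

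**Figure D5:**
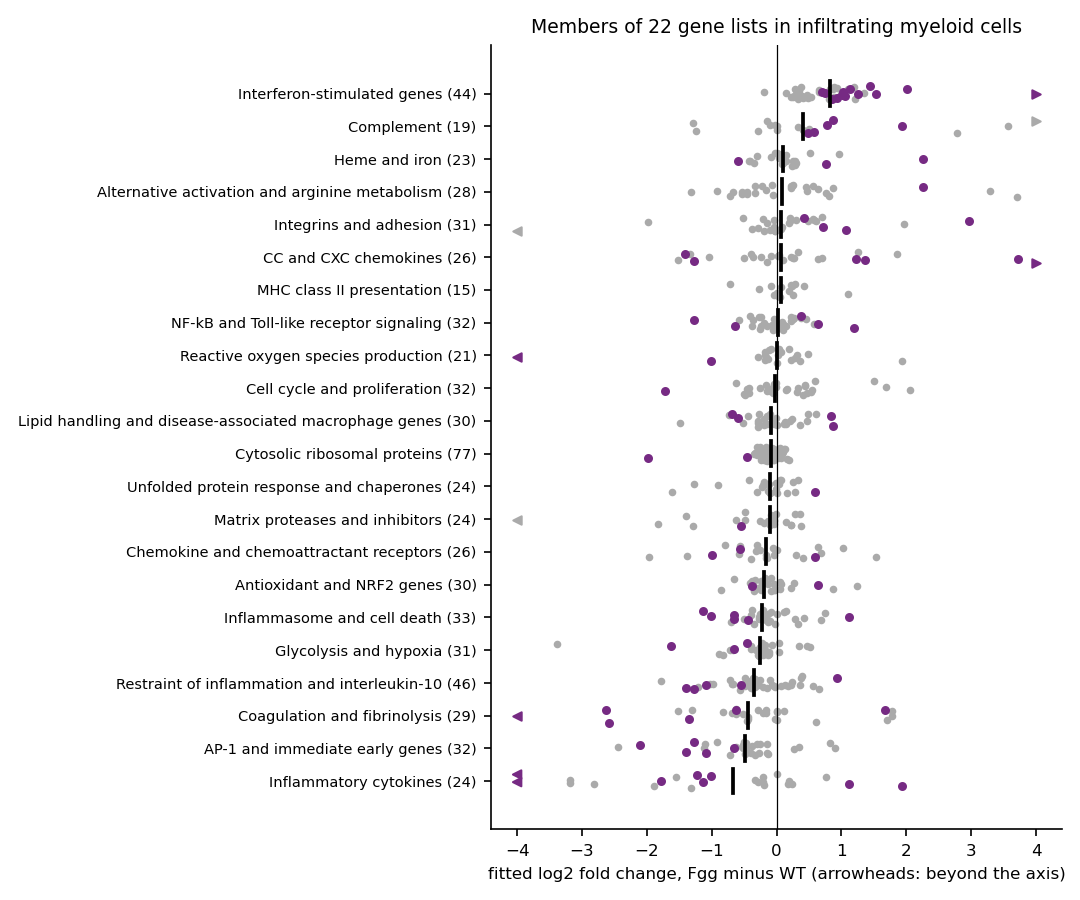
Fitted log2 fold change, Fgg γ390–396A minus WT, of the members of 22 gene lists in infiltrating myeloid cells, with the number of genes measured beside each name; each point is a gene and each bar the median of the list, and 9 members beyond the axis limits of 4 are drawn as arrowheads. The interferon-stimulated genes have a median of 0.82 with 43 of 44 above 0, and the inflammatory cytokines a median of −0.67.

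Genes of the clotting and complement systems were measured as the setting in which fibrin acts. Of 29 genes of coagulation and fibrinolysis, none was called, and the median was −0.44. At an unadjusted p under 0.05, 5 members were lower (17.2%) and 1 higher (3.45%), against 6.51% and 5.03% of all genes. The median was −0.22 without WT replicate 2 and −0.27 without Fgg replicate 1. F3, tissue factor, which starts clotting and whose gene lies on chromosome 3, 38.7 Mb from Fgg, stood at 0.0904, 0.345 and 1.62 CPM in the mutant and at 9.87, 0.790 and 2.21 CPM in the WT libraries (log2 fold change −2.63, SE 0.85, adjusted p = 0.244, edgeR). Serpine2, an inhibitor of thrombin, stood at 2.44, 40.5 and 14.8 CPM against 5.39, 9 and 3.83 CPM (log2 fold change 1.68, SE 0.54, adjusted p = 0.241). Libraries of the genotypes overlapped for both genes.

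Of 19 complement genes, 5 were higher (26.3%) and 0 lower at an unadjusted p under 0.05, against 5.03% and 6.51% of all genes. None was called, and the median was 0.41, with a range of 0.0774 to 0.526 when libraries were left out in turn. C1qc, a chain of the first component, stood at 529, 960 and 668 CPM against 450, 500 and 307 CPM (log2 fold change 0.78, SE 0.22, adjusted p = 0.186, edgeR). C1qb had a log2 fold change of 0.49 (adjusted p = 0.384), also without overlap. Both are markers of macrophages as well, 5 of whose 20 markers were higher and 0 lower at an unadjusted p under 0.05. Of all 20, 11 had a log2 fold change above 0 and 9 below. Their sums overlapped between genotypes, with means of 15148 CPM in the mutant and 16214 CPM in WT mice. More cells of a type in the gate and more transcript per cell cannot be told apart. The microglia markers summed to means of 3676 CPM in the mutant and 2935 CPM in WT mice, also with overlap. Their part in the complement values was not tested.

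Of 31 integrin and adhesion genes, none was called, and the median was 0.07. At an unadjusted p under 0.05, 4 were higher (12.9%) and 0 lower, against 5.03% and 6.51% of all genes. Vcam1, the ligand of the integrin VLA-4, also a chromosome 3 gene, stood at 0.949, 22.5 and 4.23 CPM against 1.45, 1.11 and 0.947 CPM (log2 fold change 2.97, SE 0.82, adjusted p = 0.167, edgeR), with Fgg replicate 2 far above the rest. Of 28 genes of alternative activation, none was called, the median was 0.08 (−0.07 without chromosome 3 members), and the summed level was lower in the mutant without overlap, at 5024, 5015 and 4712 CPM against 6208, 5771 and 6436 CPM. In this list, Cd163, the scavenger receptor of hemoglobin, had a log2 fold change of 2.25 (adjusted p = 0.356), at 3.70, 9.23 and 7.22 CPM against 0.967, 2.26 and 1.04 CPM without overlap. It is also one of 12 markers of border-associated macrophages, which had a median of 0.72 and whose sums overlapped, at 1757 to 2587 against 1735 to 2762 CPM.

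The metabolic and housekeeping lists held a single call. Of 77 cytosolic ribosomal proteins 1 was called, Rps3a1, with a list median of −0.09. The medians were −0.25 for 31 genes of glycolysis and hypoxia, 0.10 for 23 of heme and iron, −0.08 for 30 of lipid handling, −0.10 for 24 of the unfolded protein response, −0.11 for 24 matrix proteases and inhibitors and −0.02 for 32 of the cell cycle. None of these 6 lists held a called gene.

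The effect of genotype was last compared with that in microglia of the same day, which came from other libraries. The difference between the effects passed an adjusted p of 0.1 for 11 genes (0.0462%), 1 with the effect higher in infiltrating myeloid cells (0.0042%) and 10 lower (0.042%). With the 12 libraries of day 1 alone it passed for 0 genes by edgeR, while 1994 genes (8.37%) had an unadjusted p under 0.05 with all libraries. Fam92a was the higher one, at 6.46, 4.58 and 6.07 CPM in microglia of Fgg γ390–396A mice and 5.38, 4.34 and 5.31 CPM in those of WT mice (adjusted p of the difference 0.0837). Gm26723 stood at 6.15, 7.68 and 4.18 CPM against 5.65, 8.83 and 5.78 CPM in microglia, where its libraries overlapped (adjusted p of the difference 0.0317). Each of these microglia libraries was above each WT infiltrating myeloid library for both genes.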

How the data were processed

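The authors quantified paired-end RNA-seq reads of NuGEN Ovation low-input libraries with salmon in nf-core/rnaseq (GRCm38), and the deposited table holds expected counts per gene, scaled so that gene length is divided out and each library sums to its mapped reads. The submitters' processing notes name R 4.2.0 and DESeq2 1.36.0. The annotation release and the use of strand are not given in the sources used here. Values, of which 39.1% were not whole, were rounded. Of 45706 identifiers 45143 matched GENCODE M21, which gave symbols and coordinates, and 563 did not.

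Genes with at least 5 counts over 21 libraries were tested with edgeR 4.0.16 in R 4.3.3 (TMM, glmQLFit and glmQLFTest, 1 mean per group, Benjamini-Hochberg adjustment). A call was an absolute log2 fold change above 1 with an adjusted p under 0.1. An interaction needed only the adjusted p. Near-identical genes were those whose longest transcripts matched at 95% identity or more over 80% or more of the shorter (BLAST+ 2.17.0). CPM values use TMM-scaled library sizes and, per length, can be set side by side between genes. Libraries of 1 group came from separate pools of mice, and no pair differed by less than counting noise. The smallest measurable amount was set at 3 counts per library.

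Members, gene lists and tests were chosen with earlier results of these data known. Named genes were Fgg, Itgam and Itgb2; the 15 calls with the smallest p in each direction outside chromosome 3 and copies; 5 in each direction on chromosome 3 and among copies; called members and up to 4 members by p of each list; the 3 highest members of each marker list; and 3 interaction calls in each direction. One lower call that the rule names is not reported here. Gm5900, Gm4070, Uhrf1, Siglech, Oas2, Relt and the partners of copies were named after their values were seen. In a simulation of this comparison with 200 of 22662 genes changed by a log2 fold change of 2, 149 (74.5%) were recovered and 12 others called, and 0 of 22636 were called where none was changed. The simulation gave every group the spread fitted over all 21 libraries, so it cannot show how a larger spread in infiltrating myeloid libraries affects the calls. The common biological coefficient of variation was 0.643 with all libraries and 0.804 with the 6 infiltrating myeloid libraries only. Promoter sequences are from RefSeq, GRCm38.p6. Alternatives were DESeq2 1.42.0, other scalings, filters, thresholds, identity limits and sets of libraries, the replicate number as a block, and leaving out each library.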

Additional observations from a re-analysis of the deposited data

Results flagged for a closer look

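The effect of genotype in infiltrating myeloid cells differed from that in microglia of the same day for 11 genes, at an adjusted p under 0.1 of the difference itself (edgeR, all 21 libraries). The fitted difference of the log2 fold changes, infiltrating myeloid cells minus microglia, was 4.14 for Fam92a, which was higher in Fgg γ390–396A mice in infiltrating myeloid cells and stood at 4.34 to 6.46 CPM over both genotypes in microglia. It was −3.31 for Gm26723, −3.05 for Cryba4, −6.98 for Mymk, −6.82 for Gm12953, −6.99 for Dyrk4 and −6.75 for Gm20544. The mutant infiltrating means of Mymk, Gm12953, Dyrk4 and Gm20544 were 0.00823, 0.0165, 0.00933 and 0.0732 CPM. These lie near or under the floor, so the size of their differences is poorly determined. The fitted difference was −8.12 for Zfp286, −8.48 for Bend5, −6.80 for Gm43106 and −11.2 for Gm16125, which had no counts in the mutant infiltrating libraries, so that these 4 fitted values depend on the prior count and give no size. In microglia, Zfp286 stood at 1.46, 2.64 and 1.33 CPM in Fgg γ390–396A mice and at 1.22, 0.796 and 0.390 CPM in WT mice, and Gm16125 at 4.52, 2.01 and 1.41 CPM against 1.03, 0 and 0.351 CPM. With the 12 libraries of day 1 alone, 0 of these differences passed.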

How the results depend on the processing

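The limits lie in 3 libraries per genotype, a spread estimated largely from microglia, and counts divided among near-identical genes. Of the 108 calls, DESeq2's Wald test gave 841 with 107 shared (58 on chromosome 3, 10 on copies of its genes, 110 on other copies and 663 elsewhere), and filterByExpr 176 with all 108 shared (13 on other copies and 137 elsewhere). The 6 infiltrating myeloid libraries alone gave 7 (2 on chromosome 3, 1 on other copies and 0 elsewhere), the 12 libraries of day 1 gave 18 (4, 2 and 8), and an adjusted p under 0.05 gave 47 (4 on other copies and 29 elsewhere). Leaving out 1 library gave 65 to 641 in all, 9 to 57 on chromosome 3, 4 to 49 on other copies and 43 to 528 elsewhere. DESeq2's size factors, no filter beyond 1 count, removal of ribosomal RNA genes and no bar on the fold change gave 111 to 118. The number of family sums called was 4 at 90% identity and 1 to 15 without 1 library. The number of differences from microglia was 259 with DESeq2, 0 with the 12 libraries of day 1 and 8 to 148 without 1 library. The cause of these shifts was not tested.

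Deviations from the group means correlated at 0.00661, 0.0250 and 0.0909 between same-numbered libraries, across 11431 genes. Between differently numbered libraries the correlations ran from −0.110 to 0.0684. These weak correlations show no clear pairing by replicate number and cannot exclude a shared batch. With the number as a block, 66 genes were called with all libraries (44 elsewhere; 61 shared) and 17 with the 6 infiltrating myeloid libraries (2 on chromosome 3 and 3 elsewhere; 8 shared), and 1 family sum with all libraries.

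Without 1 library, list medians ranged from 0.25 to 1.01 for interferon-stimulated genes, 0.0774 to 0.526 for complement, 0.00845 to 0.222 for integrins and adhesion and 0 to 0.231 for heme and iron. Medians of the chemokine, MHC class II, alternative activation, NF-kB, cell cycle, ribosomal protein and reactive oxygen lists, all within 0.1 of 0, changed sign in at least 1 of these fits. Of the 49 called genes named, 7 kept the call under every alternative and 0 changed sign. Of 2020 results over 135 genes, called or not, under an alternative, 1814 kept their side of the threshold and direction, 163 lost it, 38 gained it and 5 changed sign. These 5 were in genes that were not called. Without 1 library, the log2 fold change ranged from 0 to 2.25 for Fgg, −0.15 to 0.0036 for Itgam, −0.11 to 0.025 for Itgb2 and −7.44 to 0 for Tfpi2, and with the 6 infiltrating myeloid libraries alone it was 0.0033 for Itgb2.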
